A study of Mus musculus with 2 samples.

Results

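Distal CpG-rich open regions of mouse megakaryocyte progenitors are described here. A region belongs to this set when its strongest summit lay over 1 kb from every protein-coding transcription start in GENCODE M21 and the 501 bp window centred on that summit had a GC content of 60% or more and an observed to expected CpG ratio of 0.6 or more. Of the 80938 open regions in the conservative list made from both libraries, 844 (1.04%) met this rule, which is 1.29% of the 65549 distal regions. The number depends on the thresholds: 1427 regions qualified with composition taken from 100 bp each side of the summit, and 374 among the stronger 50% of regions. The assay was ATAC-seq, where the Tn5 enzyme cuts and tags DNA that nucleosomes leave accessible. The cells were primary megakaryocyte progenitors, precursors of the cells that release platelets, taken from male C57BL/6J mice that were adult and 5 to 6 weeks old. There was 1 group with 2 biological replicates, 50000 cells per library, no treatment and no other condition, so no test between groups exists. Both replicates carry the same donor label, and whether each was a single animal or a pool is not given in the sources used here.

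CpG dinucleotides are scarce in most of the mouse genome, because methylated cytosine mutates readily to thymine. CpG islands escape methylation and keep their CpGs, and most of them cover the promoters of protein-coding genes, where proteins with a CXXC zinc finger bind unmethylated CpG. Islands away from annotated promoters are called orphan islands, and they are known from other work to hold starts of noncoding RNAs, unannotated promoters or chromatin marked by Polycomb complexes.

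The sequences below show what such DNA looks like. Each reaches 100 bases to either side of the summit, read 5′ to 3′ on the plus strand of mm10, in lower case with every CpG in capitals, and is called by the nearest protein-coding gene. The first 3 are the strongest regions whose window avoids untranslated exons in both GENCODE and RefSeq, which left out the region near Hpcal1 because RefSeq places an untranslated exon there: near Gm13283 (chr4:88757602-88757802), near Trim43b (chr9:89066801-89067001) and near Cldn9 (chr17:23700190-23700390). The others are the strongest region in a coding exon (Tpbgl, chr7:99625815-99626015), the strongest in an intron (Hsf5, chr11:87639286-87639486), the one near an imprinted gene (Rasgrf1, chr9:89879724-89879924), and the strongest near genes of 2 megakaryocyte lists (Nfib, chr4:82513242-82513442, and Itga2b, chr11:102467156-102467356).
Gm13283: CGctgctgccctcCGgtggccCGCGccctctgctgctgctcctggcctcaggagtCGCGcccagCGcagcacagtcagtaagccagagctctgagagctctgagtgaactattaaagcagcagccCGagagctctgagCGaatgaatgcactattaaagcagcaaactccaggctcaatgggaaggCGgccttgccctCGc
Trim43b: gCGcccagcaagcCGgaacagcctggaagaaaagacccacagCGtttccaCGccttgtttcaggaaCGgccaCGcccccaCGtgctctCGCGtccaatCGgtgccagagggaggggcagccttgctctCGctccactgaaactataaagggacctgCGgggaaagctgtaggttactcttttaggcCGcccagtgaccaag
Cldn9: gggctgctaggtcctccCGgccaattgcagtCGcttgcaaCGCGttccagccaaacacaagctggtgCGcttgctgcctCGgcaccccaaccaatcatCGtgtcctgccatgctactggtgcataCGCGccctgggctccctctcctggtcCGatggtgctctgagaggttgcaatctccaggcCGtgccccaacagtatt
Tpbgl: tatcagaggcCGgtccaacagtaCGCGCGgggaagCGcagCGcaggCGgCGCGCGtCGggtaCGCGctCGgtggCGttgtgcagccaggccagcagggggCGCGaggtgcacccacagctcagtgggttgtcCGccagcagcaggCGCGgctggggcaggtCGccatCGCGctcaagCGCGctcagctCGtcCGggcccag
Hsf5: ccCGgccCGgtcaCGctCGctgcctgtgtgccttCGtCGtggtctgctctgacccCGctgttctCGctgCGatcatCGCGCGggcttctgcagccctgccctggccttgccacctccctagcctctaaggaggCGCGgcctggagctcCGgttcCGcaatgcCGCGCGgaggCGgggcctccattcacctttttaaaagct
Rasgrf1: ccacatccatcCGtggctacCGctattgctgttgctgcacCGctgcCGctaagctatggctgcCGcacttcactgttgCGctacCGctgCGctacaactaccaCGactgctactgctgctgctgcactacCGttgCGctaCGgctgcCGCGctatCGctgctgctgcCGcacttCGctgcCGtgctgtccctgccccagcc
Nfib: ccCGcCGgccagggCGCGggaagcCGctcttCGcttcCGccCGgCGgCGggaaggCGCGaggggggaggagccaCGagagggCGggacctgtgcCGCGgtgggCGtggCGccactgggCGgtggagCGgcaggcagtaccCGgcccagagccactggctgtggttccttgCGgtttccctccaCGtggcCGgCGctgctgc
Itga2b: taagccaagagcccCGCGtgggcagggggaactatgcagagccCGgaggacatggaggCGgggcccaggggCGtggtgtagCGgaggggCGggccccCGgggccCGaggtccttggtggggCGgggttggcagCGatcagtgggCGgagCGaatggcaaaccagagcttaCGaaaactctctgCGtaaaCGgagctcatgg

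CpG density within 100 bases of the summit differed among these windows although all passed the same rule. The Tpbgl window held 27 CpGs and the Nfib window 25, while the Gm13283 and Cldn9 windows held 11 each. The Rasgrf1 window, with 18 CpGs, shows runs of the triplet ctg in its printed sequence. The Itga2b window, with 16 CpGs, held matches to the GC box GGGGCGGG that SP factors bind.

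Whole-series facts were as follows. The list of replicate 1 held 61735 regions, of which 697 met the rule, and that of replicate 2 held 60098, of which 684 met it. Read counts were not used here and the depth of each library is unknown. Of 10 megakaryocyte marker genes 5 had an open region within 1 kb of a start (Itga2b, Itgb3, Gp1ba, Gp9 and Pf4), while Gp1bb, Gp6, Ppbp and Vwf were among those with none. Among markers of other blood cells, 4 of 6 erythroid, 3 of 5 granulocyte, 2 of 4 monocyte and macrophage, 1 of 3 mast cell, 1 of 4 B cell and 0 of 4 T and NK cell genes had one, as did 2 of 4 endothelial genes. The part of other cell types in the regions described here was not tested, and in a bulk library a site open in few cells and a weakly open site in all cells cannot be told apart.

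The word orphan held for only some of the 844 regions. For 97 of them (11.5%, Wilson 95% interval 9.51 to 13.8, or 21.6% when starts of every transcript of protein-coding genes count) the CpG island around the summit, built from all 501 bp windows that pass the same composition thresholds, also held a protein-coding start. These 97 summits lay in promoter islands with a median length of 2679 bp, a median of 1289 bp from the nearest protein-coding start. Another 303 regions (35.9%, 32.7 to 39.2) had a different annotated start within 1 kb or inside the island. The remaining 444 (52.6%, 49.2 to 55.96) had none in GENCODE, and 353 of these (41.8% of all, 38.5 to 45.2) had no RefSeq start within 1 kb either. RefSeq placed the start of an mRNA within 1 kb of 133 of the 844 (15.8%), against 1.92% of the other distal regions and 19.3% of all regions. One example is the region near Kif14, which encodes a kinesin of cell division: GENCODE put its nearest protein-coding start 1.65 kb away and a noncoding isoform 61 bp away, while RefSeq put an mRNA start of Kif14 19 bp from the summit. The intervals given here and below cover counting error only, and regions are not replicates of a condition.

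Composition chose these regions, so it is given as a description. GC content ranged from 60.1% to 81.4% with a median of 64.9%, and the CpG ratio from 0.601 to 1.32 with a median of 0.776. Promoter regions that pass the same composition thresholds (7216 regions with a summit within 1 kb of a protein-coding start) had medians of 66.1% and 0.843. The other 64705 distal regions had medians of 46.7% and 0.215. The window around the summit held a median of 41 CpGs here, 45 at CpG-rich promoters and 6 at other distal regions.

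**Figure D1:**
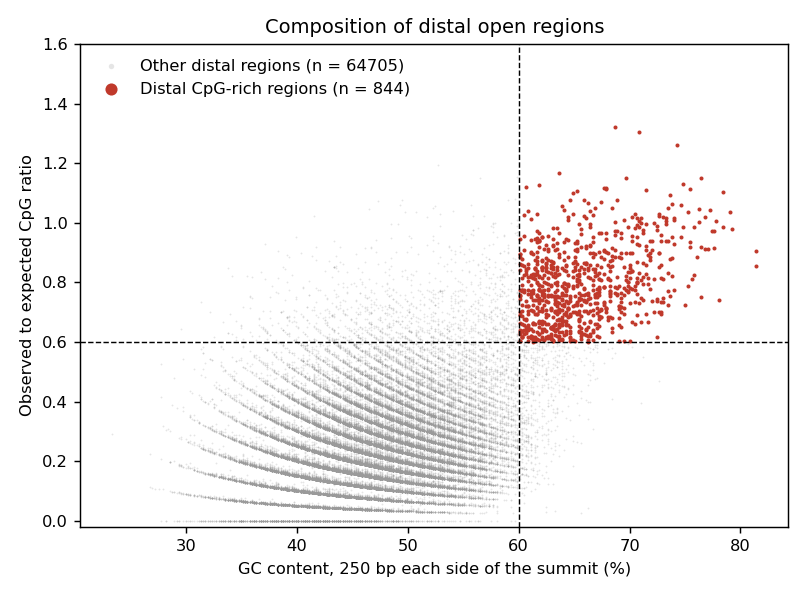
Observed to expected CpG ratio against GC content (%) of the 501 bp window around the summit of each distal open region. Red points are the 844 distal CpG-rich regions, grey points the other 64705 distal regions, and dashed lines the thresholds of 60% and 0.6. The red points adjoin the thin upper edge of a continuous grey cloud whose median GC content is 46.7%.

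At the GC threshold, the region just inside lay near Gm21860 on chromosome Y (60.1%, signal 2.33) and the one just outside near Vegfd on chromosome X (59.9%, signal 22.6). For the CpG ratio the neighbours were a region near Tubb5 (0.601, signal 3.29) and one near Gm12248 whose ratio fell short of 0.6 only beyond the digits shown (signal 4.83). For distance they were a region 1007 bp from a start of Rcor3 (signal 7.09) and one 997 bp from a start of Brd1 (signal 4.03). A further 373 distal regions had a CpG ratio of 0.6 or more with a GC content between 55% and 60%.

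Signal, the authors' own value for each peak, ranged from 2.33 to 29.6 in these regions with a median of 8.17 in the conservative list. Over all 80938 regions the median was 8.90. In the list of replicate 1 it ranged from 2.89 to 25.2 with a median of 8.44, and in replicate 2 from 2.68 to 27.0 with a median of 9.04, giving a mean of medians of 8.74 ± 0.421 (SD, n = 2). CpG-rich promoters had medians of 10.1 and 10.9 (10.5 ± 0.529), and other distal regions medians of 9.0 and 9.53 (9.27 ± 0.377). The gap to CpG-rich promoters exceeded the spread between replicates. The gap to other distal regions was of the size of that spread, but the median was lower here in each replicate's list. In the conservative list the median was 8.17 here and 8.74 in other distal regions. The median of the CpG-rich regions was 8.91 when only those over 2 kb from a start were kept. With composition from 100 bp each side it was 8.86. The median of other distal regions was not recomputed under these 2 alternatives, so the gap there is not known. Of the 844 regions 70 (8.29%) were among the strongest 10% of all regions.

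**Figure D2:**
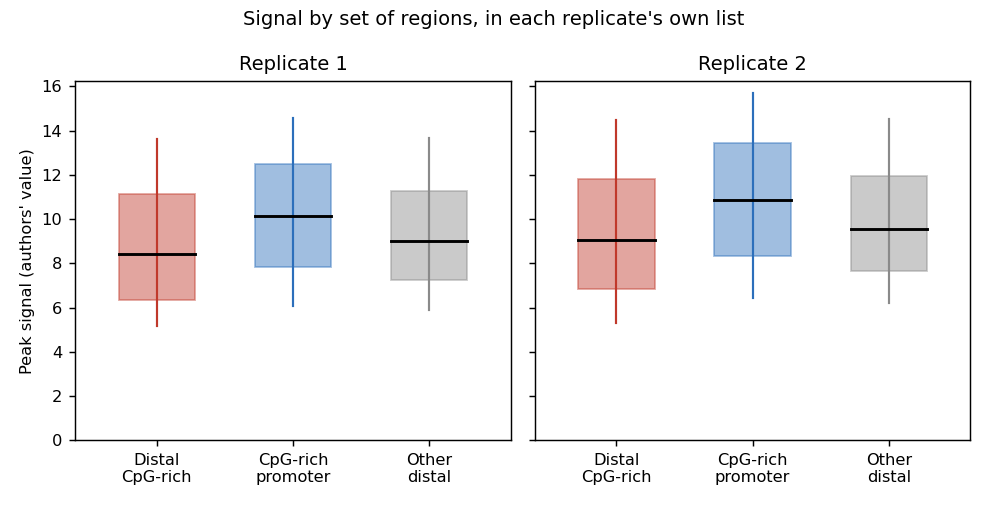
Peak signal (the authors' value, no unit) in each replicate's own list, for distal CpG-rich regions, CpG-rich promoters and other distal regions. Lines in boxes are medians, boxes span the middle 50% of regions and whiskers the 10th to 90th percentile. In both panels the red median, 8.44 in replicate 1 and 9.04 in replicate 2, is the lowest of the 3.

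The distal CpG-rich regions were in both replicates' own lists more often than other distal regions. Of the 844, 618 (73.2%, 70.1 to 76.1) overlapped a region in each replicate's own list by at least 50% of either region, against 63.9% of all 80938 regions, 88.1% of CpG-rich promoters and 59.5% of other distal regions. Width moved with this share: the median width was 659 bp here, 893 bp at CpG-rich promoters and 417 bp at other distal regions, and its part in the share was not tested. In 123 regions neither replicate's own list held a match, and in the longer pseudoreplicated lists 836 of the 844 (99.1%) were matched in both. The share in those longer lists was 97.3% over all regions, 99.5% at CpG-rich promoters and 96.95% in other distal regions, so the sets differed little there. Summits were often multiple, with more than 1 summit in 54.6% of these regions, 72.5% of CpG-rich promoters and 25.1% of other distal regions.

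Across the 618 regions in both lists the Spearman correlation of signal between replicates was 0.956, close to the 0.962 at 6359 CpG-rich promoters and above the 0.900 at 38523 other distal regions. These points share 2 libraries and are given as a description. On the log2 scale replicate 2 exceeded replicate 1 by a median of 0.09, with an SD of 0.16 over regions. Within the 844, signal was nearly unrelated to how CpG-rich the window was, with a Spearman correlation of -0.08 for GC content and -0.004 for the CpG ratio. It was higher in regions farther from a protein-coding start (0.32), in wider regions (0.35) and in regions of shorter islands (-0.31).

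**Figure D3:**
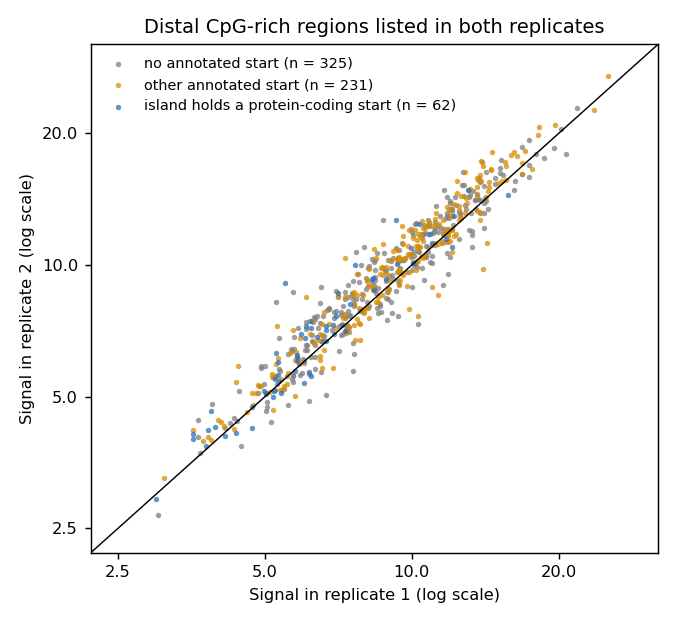
Signal in replicate 1 against replicate 2, both on log scales, for the 618 distal CpG-rich regions in both lists, coloured by class of annotated start. The line marks equal values. Points follow the line closely (Spearman 0.956), and the blue points, whose island holds a protein-coding start, are mostly in the lower part.

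The strongest region lay on chromosome 4 from 88757435 to 88757852, 2.42 kb from a start of Gm13283. The start of the long noncoding RNA gene Gm13274 lay 123 bp from the summit, and RefSeq placed an mRNA start of Gm13286 142 bp away. The signal of this region was 25.2 in replicate 1 and 27.0 in replicate 2 (26.1 ± 1.26, SD, n = 2). In the conservative list its value of 29.6 was the 11th highest of all 80938 regions. This window had 13 copies elsewhere in the genome, the closest of them 91.5% identical. The part of these copies in its signal was not tested.

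The second strongest region lay 154 kb from a start of Hpcal1, a gene of a neuronal calcium sensor, on chromosome 12 from 17881332 to 17882156. Its signal was 23.6 and 22.6 (23.1 ± 0.722), and a pseudogene, Gm49326, started 404 bp away. Next came an intergenic region 25.8 kb from Trim43b, of the tripartite motif family, with signals of 21.8 and 22.9 (22.3 ± 0.780) and no GENCODE start within 1 kb. RefSeq listed a noncoding transcript, Gm24463, 72 bp from that summit, and the window had 2 near-identical copies.

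A region 16.3 kb from Cldn9, which encodes a tight-junction claudin, had signals of 20.2 and 20.5 (20.3 ± 0.242). It had no near-identical copy and no start of either annotation within 1 kb, and it was the strongest of the 353 such regions with a conservative-list value of 21.7. The region near Kif14 had signals of 19.6 and 20.9 (20.3 ± 0.882). The region 11.6 kb from Tex50 was the only one of the first 6 with a lower value in replicate 2 by more than 2 units, at 20.7 and 17.95 (19.3 ± 1.97). It had 1 copy, at a start of D030056L22Rik.

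Both remaining autosomal regions of the 10 strongest without an annotated start lay on chromosome 4. One lay 53.7 kb from Nkain1, whose product binds the sodium pump, with signals of 19.5 and 18.5 (19.0 ± 0.708). The other lay 16.9 kb from Klf4, which encodes a zinc finger transcription factor, with signals of 18.7 and 17.6 (18.1 ± 0.803). The region called by Asap2, a regulator of ARF GTPases 190 kb away, lay 103 bp from the pseudogene Zfp125 and had 2 copies (18.3 and 20.7, 19.5 ± 1.73). The region 29.6 kb from Usp9x, an X-linked deubiquitinase, lay 96 bp from the start of the noncoding gene 5730405O15Rik (18.1 and 19.9, 19.0 ± 1.23). All 10 of these regions were intergenic by the annotation, and 6 of the 10 had lower signal in replicate 1 than in replicate 2.

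By annotation, 328 regions (38.9%, 35.6 to 42.2) had an intergenic summit, 232 (27.5%) an intronic one, 175 (20.7%, 18.1 to 23.6) one in a coding exon and 109 (12.9%) one in an untranslated or noncoding exon. The coding-exon share stood out against 1.89% over all 65549 distal regions, 1.65% in other distal regions and 3.88% at CpG-rich promoters. The regions were chosen for their base composition, whose part in this share was not tested. Introns held 52.8% of other distal regions.

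Of the 175 summits in coding exons, 73 (41.7%, 34.7 to 49.1) lay in the last coding exon of the transcript with the longest coding sequence, 45 in an inner one, 24 in the first and 33 in genes with a single coding exon. The exons concerned had a median of 777 coding bp. These places and lengths were not set beside other coding-exon regions or coding sequence as a whole, so they are a description only. The island reached a protein-coding start for 12 of the 24 in first exons and 15 of the 33 in single-exon genes, but for 2 of the 45 in inner and 3 of the 73 in last exons. Median signal was 7.88 in last exons, 8.13 in inner ones, 6.25 in first ones and 6.58 in single-exon genes.

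The 3 strongest coding-exon regions each had a match to the CTCF motif, the sequence bound by the insulator protein CTCF, within 75 bp of the summit. The first lay in Tpbgl, a leucine-rich repeat gene, on chromosome 7 from 99625523 to 99626072 (signals 15.7 and 14.5, 15.1 ± 0.876), 1.19 kb from its start and in an island of 1972 bp that reaches it. The second lay in Synpo2l, which encodes an actin-associated protein of striated muscle, with signals of 14.2 and 16.3 (15.3 ± 1.49). The third lay in Ppp1r13l, which encodes the p53 inhibitor iASPP, with signals of 14.1 and 14.2 (14.2 ± 0.0537). Over all 175 coding-exon regions 11 (6.29%) had a CTCF match, against 7.42% of 1065 other distal regions in coding exons and 1.52% of intergenic CpG-rich ones.

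The strongest intronic region lay within Hsf5, a heat shock factor gene active in spermatogenesis, 22.2 kb from its start on chromosome 11 (87639166 to 87639680), with signals of 17.99 and 17.95 (17.97 ± 0.0282). Next was one at 147443000 to 147443559 on chromosome 4 within C230088H06Rik and Gm26624, called by Zfp982 (16.2 and 18.1, 17.2 ± 1.40), which had 4 copies. RefSeq placed an mRNA start of Zfp982 178 bp from the summit of this region. A region within the Zfp286 gene, nearest to a start of Gm10428, followed at 17.4 and 19.3 (18.3 ± 1.33). In untranslated or noncoding exons the strongest were a region in the pseudogene Gm7417 inside Alkal1, a gene of a receptor tyrosine kinase ligand (17.1 and 18.3, 17.7 ± 0.850), one in an exon of Zc3h12b nearest to Zc4h2 (16.8 and 17.1, 17.0 ± 0.193), and one in the long noncoding gene Gm33195, 79.9 kb from Cd83 (16.0 and 17.8, 16.9 ± 1.304). For the region in Zc3h12b, RefSeq placed an mRNA start of that gene 37 bp from the summit. The SD between replicates was at most 1.40 in these 6 regions.

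Distance to the nearest protein-coding start ran from 1007 bp to 835 kb with a median of 7.98 kb. The 181 regions at 1 to 2 kb had a median signal of 6.15, the 162 at 2 to 5 kb 7.05, the 119 at 5 to 10 kb 9.40, the 264 at 10 to 50 kb 9.56, and the 118 beyond 50 kb 9.17. The nearest regions were thus the weakest, and they were also the ones with promoter islands: 88 of the 181 at 1 to 2 kb lay in an island with a protein-coding start, 9 of the 162 at 2 to 5 kb, and none farther out. The medians of the replicates' own lists kept this order, at 6.76 ± 0.465 for 1 to 2 kb, 7.49 ± 0.256 for 2 to 5 kb and 9.97 ± 0.199 for 10 to 50 kb (SD, n = 2).

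The same contrast appeared between classes of start. Regions whose island held a protein-coding start had a median of 6.49 ± 0.444 over the replicates' lists, regions with another annotated start 9.49 ± 0.211, and regions with no annotated start 8.85 ± 0.460. They were listed in both replicates in 63.9% (54.0 to 72.8), 76.2% (71.1 to 80.7) and 73.2% (68.9 to 77.1). Lying in an island with a protein-coding start thus went with a lower signal than in the other classes, by more than the spread between replicates.

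Starts of other transcripts were more common here than in other distal regions and less common than at CpG-rich promoters. Within 1 kb of the summit, 334 of the 844 (39.6%, 36.3 to 42.9) had a start of a transcript that is not a protein-coding one, against 7.81% of all distal regions and 7.40% of other distal regions. The share was 18.2% over all regions and 68.9% at CpG-rich promoters. The nearest such start belonged to a long noncoding RNA gene in 138 (16.4%, against 2.35% in other distal regions and 3.20% of all regions). It belonged to a noncoding isoform of a protein-coding gene in 107 (12.7%, against 2.96% and 12.8%, the latter near the share here). A pseudogene was nearest in 56 (6.64%, against 0.929% and 0.877%), a small RNA gene in 19 (2.25%, against 0.567% and 0.636%) and an unverified gene in 14 (1.66%, against 0.420% and 0.507%). Median signal was 9.21 beside long noncoding RNA starts, 10.7 beside pseudogenes, 7.44 beside noncoding isoforms and 5.63 beside small RNA genes.

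The 19 regions beside small RNA genes held several genes of the translation and splicing machinery. Regions on chromosome 1 near Fcgr3 lay 59 and 64 bp from tRNA genes that RefSeq names n-TGtcc5 and n-TGtcc4, with signals of 4.13 and 4.30 for the former in replicates 1 and 2 and of 3.83 and 4.04 for the latter. The U3 small nucleolar RNA genes Rnu3b1 and Rnu3b2, whose RNA guides ribosomal RNA processing, had regions 262 and 259 bp away, with signals of 10.62 and 10.56 at Rnu3b1 and of 12.6 and 12.8 at Rnu3b2. Of 7 annotated snRNA genes, 6, among them Gm25890 and Gm22614, had near-identical copies and conservative-list signals from 3.92 to 5.71, while Gm25044 had no copy and a signal of 13.5. The microRNA gene Mir132 had one 124 bp away (5.76 and 5.02), and Mir203 had one 542 bp away that neither replicate's own list held. Of these 19 regions 11 had near-identical copies.

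One of them stood apart by its sequence. The region from 123623625 to 123623810 on chromosome 8, 26 bp from the ribosomal RNA gene Gm23647, was 66.1% repeat-masked and had 50 near-identical copies. It was absent from both replicates' own lists.

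Near-identical copies were more frequent here than elsewhere. A copy was a second place in the genome with at least 90% identity over at least 50% of the 501 bp window. Repeat-masked bases could not start a match. The median masked share of the window was 4.59% here and 12.6% in other distal regions, and its part in the shares below was not tested. Copies were found for 75 of the 844 (8.89%, 7.15 to 11.0), against 2.56% of all regions, 1.15% of CpG-rich promoters and 2.48% of other distal regions. In 48 of the 75 a copy lay within 1 kb of a protein-coding start, and 32 had a pseudogene start within 1 kb. How reads that match several places were treated is not given in the sources used here. How far signal at such a region came from its copy was not tested.

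Several of these regions resembled sequence at a start of another gene, here meaning within 1 kb of it. Whether the shared sequence is promoter or transcribed sequence was not tested. The region beside the pseudogene Gm6501 (chromosome 19, 11120963 to 11121616) was 98.2% identical to sequence at a start of Syncrip, an RNA-binding protein gene, and had signals of 14.2 and 14.3. The one 223 bp from Anp32b-ps1 was 96.0% identical to sequence at a start of its parent Anp32b, with signals of 13.6 and 15.6. The one 316 bp from Gm2058 was 98.6% identical to sequence at a start of the ubiquitin-conjugating enzyme gene Ube2h, with signals of 9.86 and 9.64.

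Chromosome 4 held 82 of the 844 regions, 2.04% of its distal regions, against 1.29% over all chromosomes. A cluster of 9, all within 1 kb of a pseudogene start and 8 of them with near-identical copies, lay next to the zinc finger genes Zfp980, Zfp600, Zfp993, Zfp991, Zfp982 and Zfp534. Signal there ranged from 5.61 to 19.0, and 5 of the 9 were in both replicates' lists. Chromosome X held 36 regions, 2.42% of its distal regions. Without the 75 regions that had copies, 769 remained, with a median over replicates of 8.70 ± 0.420 and 72.2% in both lists, so neither value rested on them.

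To see how many islands of this kind were open at all, every 501 bp window of the genome was scored by the same composition thresholds and overlapping windows were joined. This gave 19698 islands. Of the 11487 with a protein-coding start inside, 9203 (80.1%, 79.4 to 80.8) held the strongest summit of an open region, with 75.9% ± 0.480 over the replicates' own lists. Of the 7479 islands with no protein-coding start inside or within 1 kb, 1114 did (14.9%, 14.1 to 15.7; 12.5% ± 0.0851). The 844 regions lay in 828 islands, some of which held a protein-coding start. A summit anywhere in an island counted as open, also where its own window missed the thresholds. The open distal islands are thus not the same set as these 828.

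Repeats separated the distal islands. Of 4038 that were over 50% repeat-masked, 2 (0.0495%, 0.0136 to 0.180) held an open summit. Of the other 3441, 1112 (32.3%, 30.8 to 33.9) did. How reads in repeats were placed is not given in the sources used here, and its part in this share was not tested. Among the 3441, those with another annotated start inside were open in 47.4% (395 of 833, 44.1 to 50.8) and those without in 27.5% (717 of 2608, 25.8 to 29.2). Averaged over the replicates' own lists these shares were 40.8% ± 0.255 and 22.9% ± 0.190.

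The open share is also given by island length. Distal islands of up to 50% masked sequence were open in 19.5% up to 600 bp, 28.6% from 600 to 800 bp, 39.0% from 800 to 1200 bp and 39.1% above. Promoter islands of the same lengths were open in 68.1%, 78.2%, 82.1% and 79.8%. The SD between replicates within a length class was at most 1.55 percentage points. Composition and other starts were not matched between these islands.

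**Figure D4:**
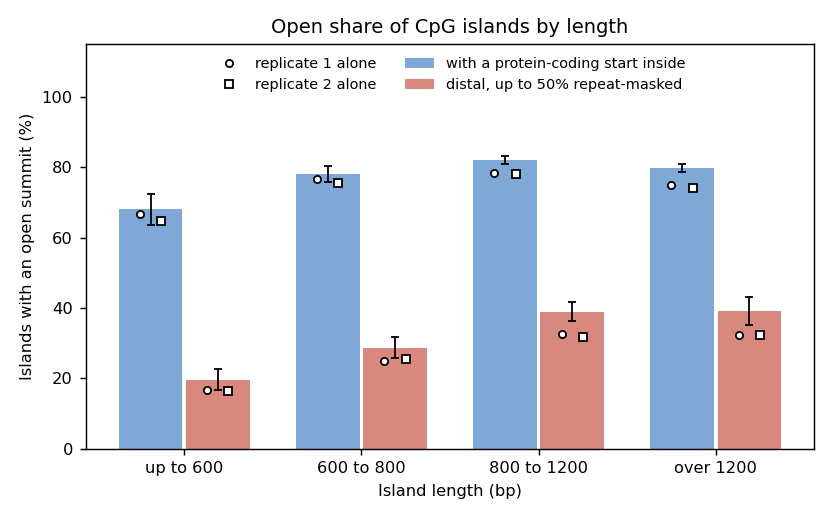
Share of CpG islands with an open summit (%) by island length (bp). Blue bars are islands with a protein-coding start inside and red bars distal islands up to 50% repeat-masked. Error bars are Wilson 95% intervals, and circles and squares give the share in the list of replicate 1 or 2 alone. Distal islands rise from 19.5% to 39.1% and stay below promoter islands in every length class.

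Short sequence motifs were searched on both strands within 75 bp of each summit, and a base could count toward more than 1 motif. The GC box GGGGCGGG was found in 17.2% of the 844 regions (14.8 to 19.9), against 30.7% of CpG-rich promoters, 1.64% of other distal regions and 5.31% of all regions. CCAATNA, the core of the NFY site, was found in 6.64%, 12.6%, 5.10% and 6.52% in that order, and the ETS site CCGGAAGT in 2.73%, 6.13%, 0.462% and 1.37%. For these 3 motifs the distal CpG-rich regions lay between the promoters and other distal regions, and for NFY the interval of 5.15 to 8.52 nearly reached the latter. The E-box CACGTG (7.11%, 6.94%, 3.25% and 3.83%) and the CACCC box CCCCACCC of KLF factors (6.52%, 6.62%, 3.67% and 4.26%) had intervals that included the promoter shares, 5.56 to 9.04 for the E-box and 5.04 to 8.39 for the CACCC box.

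The GATA, RUNX and AP-1 sites and the ETS site without CpG were rarer here than in other distal regions. AGATAA, the site of GATA factors that direct megakaryocyte and erythroid genes, was found in 18 of the 844 (2.13%, 1.35 to 3.35), against 14.0% of other distal regions, 1.03% of CpG-rich promoters and 11.95% of all regions. TGTGGTT, the RUNX site, was found in 10 (1.19%, against 9.40%, 0.970% and 8.06%), the AP-1 site TGANTCA in 22 (2.61%, against 7.99%, 1.66% and 7.04%) and the ETS site without CpG, AGGAAGTG, in 15 (1.78%, against 8.13%, 2.05% and 7.24%). The windows were chosen for their base composition, whose part in these shares was not tested. A narrower search within 50 bp of the summit gave 1.303% for GATA.

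The CTCF motif was found in 22 regions (2.61%, 1.73 to 3.92), against 0.776% of CpG-rich promoters, 7.84% of other distal regions and 6.63% of all regions. All 22 were in both replicates' lists, where 68.6% of all regions with the motif were. By start class the motif was in 17 of the 444 regions with no annotated start, in 4 of the 303 with another start and in 1 of the 97 on a promoter island.

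Other promoter motifs were found in few of these regions and in smaller shares than at CpG-rich promoters. GCGCATGCG (NRF1) was found in 6 regions and AAGATGGCG (YY1) in 6 (0.711% each, against 1.93% and 1.73% of CpG-rich promoters and 0.383% and 0.457% of all regions). TGACGTCA (CRE) was found in 14 (1.66%, against 3.26% and 0.738%), TCTCGCGAG (BANP) in 3 (0.356%, against 1.48% and 0.182%), ACTACAA (ZNF143 and THAP11) in 3 (0.356%, against 1.84% and 1.59%) and the TATA box TATAAA in 5 (0.592%, against 1.21% and 4.14%). In other distal regions the shares were lower than here for NRF1 (0.107%), YY1 (0.224%), CRE (0.303%) and BANP (0.0015%). They were higher there for ZNF143 and THAP11 (1.37%) and for the TATA box (4.68%). The part of base composition in these shares was not tested. The 3 regions with the BANP site, all without an annotated start, had a median signal of 13.9. A match is a stretch of letters and does not show binding.

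**Figure D5:**
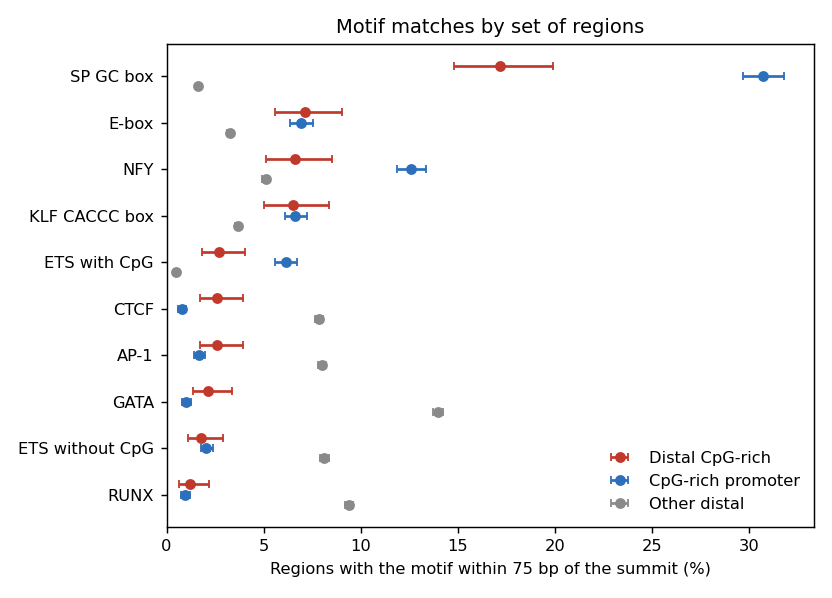
Share of regions (%) with each of 10 motifs within 75 bp of the summit, for distal CpG-rich regions, CpG-rich promoters and other distal regions. Bars are Wilson 95% intervals. The red points lie between the other sets for the GC box and the ETS site with CpG, and beside the promoters, far below other distal regions, for GATA, RUNX and AP-1.

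The genes around these regions were read against 11 lists. Of 21829 protein-coding genes 1702 (7.8%) had at least 1 of the 844 regions within 50 kb of a start. Of 30 megakaryocyte regulators 9 did (30.0%, 16.7 to 47.9): Gata2, Runx1, Tal1, Nfe2, Meis1, Mecom, Klf1, Spi1 and Nfib. Of 40 megakaryocyte and platelet genes 4 did (10%, 3.96 to 23.1): Itga2b, Gp1bb, Tbxa2r and Myh9. Gene density and CpG content around these genes were not matched, neighbouring genes can share a region, and their part in the counts was not tested.

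The strongest region of the regulator list lay in an intron of Nfib, of the nuclear factor I family, 7.57 kb from a start (chromosome 4, 82512750 to 82513645), with signals of 13.5 and 14.1 (13.8 ± 0.455). Its printed sequence held the RUNX site and 25 CpGs. Next was a short region of 288 bp in an intron of Mast1, within 50 kb of Klf1, the erythroid transcription factor gene, with signals of 11.2 and 12.3 (11.8 ± 0.793). A second region near Klf1 lay in its own coding sequence, 1.27 kb from the start (8.17 and 8.08, 8.12 ± 0.0664).

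Itga2b, which encodes the αIIb chain of the platelet fibrinogen receptor, had a region in an intron 2.63 kb from a protein-coding start and 57 bp from a noncoding isoform's start, with signals of 11.2 and 13.2 (12.2 ± 1.37). Myh9, which encodes the nonmuscle myosin heavy chain of platelets, had a weaker one 15.7 kb away, with signals of 6.54 and 6.72 (6.63 ± 0.126). Both were in each replicate's own list.

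In the other lists, 11 of 60 developmental transcription factors had a region within 50 kb (18.3%, 10.6 to 29.9), among them Hoxb3, Hoxd13, Tbx1, Tbx2, Irx3 and Irx5. The region near the homeobox gene Irx5 (9.31 and 10.1, 9.68 ± 0.524) lay 123 bp from the start of the noncoding gene Crnde in an island of 3404 bp that also holds a protein-coding start. Of 40 chromatin regulators 8 did (20%, 10.5 to 34.8), including the Polycomb genes Cbx2, Cbx7 and Cbx8, and the strongest region of this list lay in Cbx7 (9.29 and 11.0, 10.1 ± 1.18). The second named region of this list lay 33.7 kb from Cxxc5, which encodes a protein with a CXXC zinc finger (9.44 and 9.07, 9.25 ± 0.260).

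Signalling genes of blood progenitors had a region in 7 of 29 (24.1%, 12.2 to 42.1), with the region 5.58 kb from Socs3, an inhibitor of cytokine signalling, at 10.2 and 12.4 (11.3 ± 1.59). A region in a coding exon of Unc13a within 50 kb of the kinase gene Jak3 differed most between replicates among those named, at 7.99 and 11.0 (9.49 ± 2.12). Cell cycle genes had one in 5 of 25 (20%, 8.86 to 39.1), namely Ccnd1, Ccnd3, Ccne1, Cdkn1a and Cdkn2c. The region near Ccne1, nearest to Uri1, had signals of 13.6 and 15.8 (14.7 ± 1.57), and the one near Ccnd3, nearest to Usp49, 12.08 and 12.02 (12.05 ± 0.0416) with 6 summits over 1593 bp.

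In the remaining 5 lists the intervals included the 7.8% of all protein-coding genes, as did that of the megakaryocyte and platelet genes. Erythroid genes had a region in 2 of 20 (Klf1 and Bcl11a; 10%, 2.79 to 30.1), germ cell genes in 1 of 20 (Nanos3, with signals of 5.57 and 6.28), and granulocyte and monocyte genes and lymphoid genes in 0 of 20 each, where the interval reaches up to 16.1%. Of 40 imprinted genes only Rasgrf1 had one (2.5%, 0.443 to 12.9). Rasgrf1 encodes an exchange factor for RAS, is expressed from the paternal allele and is known to be controlled by a methylated repeat upstream. The region lay 30.1 kb from its nearest start, on chromosome 9 from 89879641 to 89880002, with signals of 9.98 and 10.4 (10.2 ± 0.302).

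Most regions stood alone. Regions chained within 10 kb formed 793 loci, of which 747 held 1 region, 42 held 2 and 4 held 3 or more. The locus with most lay on chromosome X from 11999192 to 12007413, nearest to Bcor, which encodes a BCL6 corepressor found in a Polycomb complex. Its 4 summits lay 73.1 to 81.4 kb from the start of Bcor, and the outermost was the strongest (8.84 and 9.76) while only 2 of the 4 were in both replicates' lists. A second locus inside an intron of Bcor held 3 regions, 7.91 to 10.7 kb from a start, with conservative-list signals from 3.54 to 5.19, of which 1 was in both lists.

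Around Hes1, a Notch target gene of the bHLH family, 3 regions at 1.02, 1.83 and 5.21 kb from the start had conservative-list signals of 5.06, 3.75 and 5.05, and only the nearest was in both lists. The 3 regions near Fcgr3 were the tRNA cluster described above. The remaining one had a conservative-list signal of 2.82, and all 3 were in both lists and had 2 copies each. The fifth locus paired the strongest region of the set with a second one near Gm13283, 5.88 kb away, with signals of 8.17 and 9.78 and 14 copies. The loci with most regions thus included weak ones, and in 3 of these 5 loci no region exceeded 5.19.

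Some strong regions were in the list of 1 replicate only. The strongest lay 12.3 kb from Mpp1 on chromosome X, 134 bp from the pseudogene Gm15378, with a signal of 12.1 in replicate 1 and no match in the list of replicate 2. In the longer pseudoreplicated list of replicate 2 it had a signal of 10.7, and its window had a copy at a start of Fam220a. Regions near Otp (11.9) and 1700018G05Rik (11.0) were in the list of replicate 2 only, and the longer list of replicate 1 gave 8.85 and 8.17 for them. All 3 were thus present in both libraries in those longer lists.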

How the data were processed

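The data were ATAC-seq peak lists on mm10 from 1 group with 2 biological replicates, in the narrowPeak format per the deposited file descriptions. Signal is the value the authors deposited for each peak, without a stated normalization across libraries. The authors also deposited −log10 p per peak, whose smallest value was 2.02 to 2.22 in the lists analysed and which only broke ties between summits. The sources used here do not give the aligner, peak caller, versions, duplicate removal or handling of multi-mapping reads. The authors' lists comprised 1 per replicate and lists made from both, of which the conservative one is the main list. The label of replicate 1 names 2 instruments, and the label code CFU-M was not interpreted.

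Records with the same interval were joined into 1 region, called by its strongest summit. The genome was GRCm38.p6 (RefSeq, soft-masked) with GENCODE M21 and RefSeq annotation, giving 54361 starts of protein-coding transcripts. Copies were searched with blastn 2.17.0 (megablast, at most 50 target sequences, with repeat-masked bases not used to start a match). Python 3.11.15, numpy 2.4.6 and pandas 2.3.3 were used, and the procedures were tested on simulated data. The members and lists were chosen with earlier results of these data known. Named regions were the 10 strongest in both replicates' lists, the 3 strongest per location and beyond 50 kb, the 2 strongest per gene list, the 5 loci with most regions, the 3 strongest in 1 replicate only, and the neighbours of each threshold. A few items that this rule or the lists would name are not reported here. Peg13 and Lnk matched no symbol in the annotation. With 1 group no test between groups was possible, and no p-values were computed. Alternatives covered the thresholds, the windows, the lists and leaving out each replicate.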

Additional observations from a re-analysis of the deposited data

How the results depend on the processing

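No paired analysis was possible because there was only 1 group. The number of regions was 663 to 997 under 4 alternatives and 684 to 697 with 1 replicate's list alone, but 1427 with composition taken from 100 bp each side of the summit and 374 among the stronger 50% of regions. The share in both replicates' lists moved to 94.7% among the stronger 50% and to 99.1% in the pseudoreplicated lists, and was 70.1% to 75.7% under the other alternatives. Median signal moved to 8.91 beyond 2 kb, 8.86 with 100 bp windows and 11.7 among the stronger 50%, and was 8.34 to 8.94 with 1 replicate. The intergenic share moved to 45.1% beyond 2 kb, 42.6% when starts of every transcript of protein-coding genes counted, 41.6% with 100 bp windows, 41.5% at a GC content of 55% and ratio of 0.65, 48.9% among the stronger 50%, and 41.0% to 42.1% with 1 replicate. The share beside another start moved in the same order to 41.3%, 30.1%, 35.9%, 40.3% and 43.9%, to 40.1% in the IDR-thresholded list, 40.5% to 40.8% with 1 replicate, 34.7% within 0.5 kb and 49.4% within 2 kb. The share on an island with a protein-coding start moved to 9.36% with islands built from 100 bp each side at a GC content of 50%, 21.6% with starts of every transcript, and 10.9% to 11.0% with 1 replicate. The open share of distal islands moved to 15.3% for islands at 55% and 0.65, and was 12.5% to 12.6% with 1 replicate. The cause of these shifts was not tested, apart from the smaller or larger sets that each alternative makes. Depth per library is unknown. In the longer pseudoreplicated lists 836 of the 844 regions were matched in both replicates, so absence from a replicate's own list did not mean absence from its longer list. For the few regions not matched there, absence cannot be told from a value below the threshold.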
